A study of Mus musculus with 9 samples.

Results

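Fibronectin, the thrombospondins and the other matricellular proteins were represented by 7 genes, Fn1, Sparc, Thbs1, Thbs2, Tnc, Postn and Spp1. The genes were chosen by name, and each of the 7 was found among the 11931 genes of the deposited count table and passed the filter on low values. Their expression was followed in normal mammary fibroblasts from the fat pads of female BALB/c mice aged 12 weeks, which had recovered on collagen for 1 week. The 9 libraries, with 3 in each group, came from fibroblasts grown alone for 5 days (monoculture) and from fibroblasts grown with 4T1-GFP cells for 3 or for 5 days (co-culture). 4T1 is a mouse mammary carcinoma line, here marked with green fluorescent protein (GFP). The fibroblasts were primary cells with no engineered allele, and in every group the sequenced cells were those sorted as negative for GFP and positive for podoplanin (PDPN). The labels do not say whether replicates were separate animals or cultures, so p-values measure only the spread between these libraries, which may be technical. No monoculture was sampled at 3 days, so at that time, and between the co-culture times, co-culture and days in culture cannot be told apart.

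Matricellular proteins are secreted into the extracellular matrix but act mainly as regulators of how cells attach to it, rather than as its scaffold. Fibronectin is a large adhesive glycoprotein that cells assemble into fibrils through integrins, and thrombospondins, tenascin C, periostin, osteopontin and SPARC bind cell surface receptors, collagen, growth factors or proteases and shift the balance between attachment and detachment. Several of them are abundant in healing wounds and in tumour stroma, where fibroblasts are a main source.

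Tnc rose at both times of co-culture, and Thbs1 and Thbs2 fell at 5 days. Tnc was 2.37 times its monoculture mean at 3 days and 3.07 times at 5 days. Both times were compared with the same 3 monocultures. At 5 days Thbs1 was 1.75-fold lower and Thbs2 2.43-fold lower. Thbs2 at 3 days was still close to the monocultures, and it was 2.28-fold lower at 5 than at 3 days. Fn1, Sparc, Postn and Spp1 did not pass the test in any of the 3 comparisons. A gene was called when limma, fitted to log2(normalised count + 1) of all 10639 genes that passed the filter, gave a Benjamini-Hochberg adjusted p under 0.05. At 3 days 1 of the 7 genes was called, beside 20.0% of all genes tested (10.6% higher and 9.37% lower). At 5 days 3 of 7 were called, beside 24.0% (12.6% higher and 11.4% lower). Between the co-cultures 1 of 7 was called, beside 6.91% (3.2% higher and 3.71% lower at 5 days). The median log2 fold change of the 7 genes was -0.09 at 3 days and -0.06 at 5 days against monoculture, and 0.27 between the co-cultures, while the median of all genes tested was 0.0014, -0.0078 and -0.0052.

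**Figure D1:**
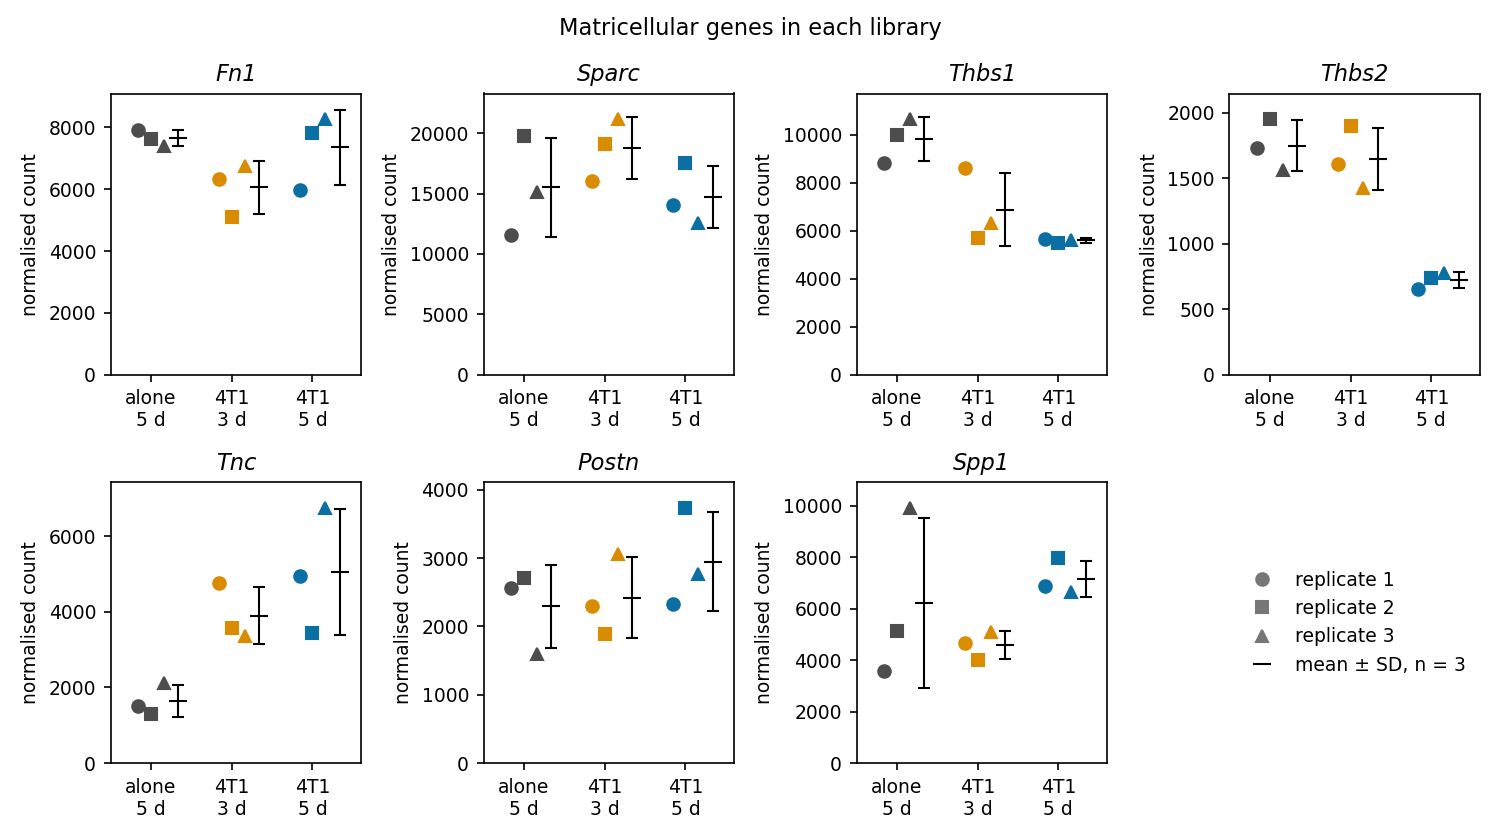
Normalised counts (vertical axes, from 0) of the 7 genes in each library, by culture group on the horizontal axes (alone for 5 days, with 4T1 for 3 days, with 4T1 for 5 days); marker shapes give the replicate, and the bar beside each group is the mean ± SD (n = 3). Every co-culture library lies above every monoculture library for Tnc, the 5-day libraries lie below all others for Thbs2, and monoculture replicate 3 stands apart for Spp1.

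Reads assigned to genes, recovered from the normalised values, numbered between 1048471 and 3567326 per library, and every monoculture was deeper than every co-culture. The 7 genes had between 619 and 41173 reads in a library. Fn1, Thbs1 and Tnc overlap Apol7d, Gm29233 and 8030451A03Rik on the opposite strand, and Spp1 overlaps Gm42793 on its own strand. None of these was among the genes of the table, and the effect of the overlaps on the counts was not tested. Markers of epithelial and carcinoma cells were higher in the co-cultures although the sort took GFP-negative cells: 18 of the 20 listed were in the table, and their summed normalised count was 62.9 to 113.6 in the monocultures, 1163 to 1341 at 3 days and 1155 to 1594 at 5 days. The members with the highest mean over all libraries were Wfdc2, with group means of 3.0, 320.1 and 441.4 from monoculture to 5 days, and Krt18, with 27.5, 197.5 and 287.1, although Lcn2, with 269.0, exceeded Krt18 at 3 days. Epcam averaged 0.17 in the monocultures, 20.0 at 3 days and 18.9 at 5 days, and Cldn3, Elf3 and Grhl2 were at 0 in every monoculture. Fibroblast markers were present in every library, with a summed count of 38966 to 61688 over 12 genes. Most of that sum came from Col1a1 (means of 19220, 21445 and 20913 from monoculture to 5 days) and Col1a2 (12280, 13204 and 10471). Pdpn, whose protein was used in the sort, lay between 197.1 and 388.4. Of these 12 markers, 5 fell at 3 days, and at 5 days 6 fell and 1, Vim, rose, beside 20.0% and 24.0% of all genes tested. Dpt (297.6 to 35.9 and 8.9), Pdgfra (189.3 to 51.7 and 21.0) and Pdgfrb (877.6 to 329.3 and 347.8) fell at both times. So did Thy1 (2587.5 to 1545 and 930.9) and Col3a1 (7303 to 3407 and 1870), and Dcn fell at 5 days (3469 to 1316). Between the co-cultures 4 fell (Dpt, Dcn, Pdgfra and Thy1) and 1, Vim, rose (4803 to 11041), beside 6.91% of all genes tested. That Thy1 call was lost without replicate 1 or 2 of either co-culture (limma adjusted p = 0.057 to 0.075). The 2 of 6 listed adipocyte markers in the table fell at both times, and their sum was 150.4 to 345.2 in the monocultures, 13.3 to 59.9 at 3 days and 10.8 to 29.9 at 5 days. Fabp4 averaged 125.8, 14.4 and 12.4, and Lpl 116.7, 18.3 and 7.7, while Adipoq was not among the genes of the table. Pericyte and smooth muscle markers, 6 of 8 in the table, summed to 61.1 to 134.3, 186.4 to 274.0 and 206.8 to 257.9. Of these Cspg4 rose at both times, from 10.2 to 77.9 and 108.8, and Notch3 averaged 53.3, 61.7 and 80.8. Des rose at 3 days (20.8 to 46.3), a call lost without monoculture replicate 2 (limma adjusted p = 0.19) and without several other libraries. Myh11 (13.7, 21.5 and 7.2) and Mcam (8.0, 11.3 and 4.8) had their lowest means at 5 days, and neither was called. Basal or myoepithelial markers, 3 of 6 in the table, summed to 2.5 to 11.0 in the monocultures and 39.6 to 66.4 in the co-cultures. Of these Sfn and Krt14 rose at both times, beside 20.0% and 24.0% of all genes tested. Both reached the filter value of 5 in fewer than 3 monocultures and passed through the co-cultures. Oxtr, which was not tested, went the other way, from an average of 2.4 in the monocultures to 0 in every co-culture. Of 9 listed endothelial markers 2 were in the table, Egfl7 (means of 20.4, 29.8 and 25.4) and Kdr (6.4, 7.8 and 3.4), and neither was called. Their sum was 25.5 to 28.3 in the monocultures, 34.7 to 41.7 at 3 days and 27.0 to 30.7 at 5 days. Pecam1 and Cdh5 were not among the genes of the table. The part of other cells in the changes below was not tested. In such bulk samples fewer cells of a type and less RNA per cell cannot be told apart.

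**Figure D2:**
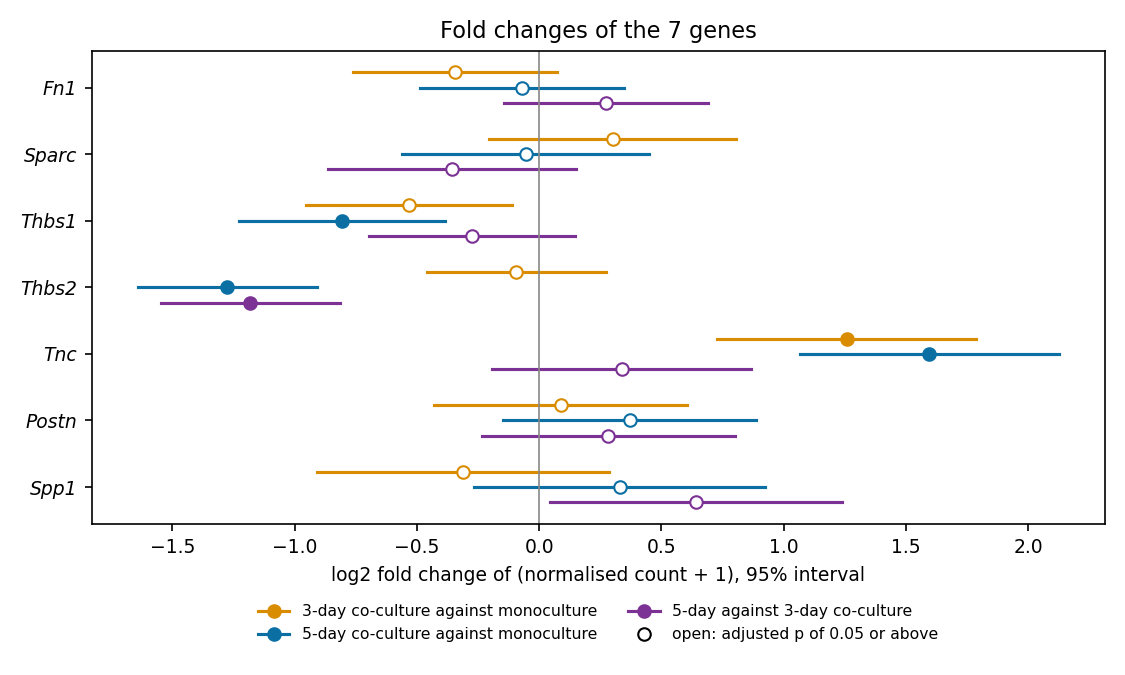
Log2 fold changes of (normalised count + 1) on the horizontal axis with 95% intervals, for the 7 genes and the 3 comparisons (colours); filled points have a limma adjusted p under 0.05. Tnc is filled on the right in both comparisons with monoculture, Thbs1 on the left at 5 days, and Thbs2 on the left wherever the 5-day co-culture is compared.

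Fn1 encodes fibronectin (chromosome 1, 71585520 to 71653200, minus strand, mm10, protein coding). Its normalised counts were 7923, 7617 and 7405 in the monocultures, 6332, 5105 and 6757 at 3 days, and 5980, 7821 and 8270 at 5 days. All 3-day libraries lay below all monocultures, whereas the 5-day libraries spread across both other groups. For Fn1 at 3 days the log2 fold change from monoculture was -0.34, with a 95% interval of -0.76 to 0.07 (limma adjusted p = 0.24). For 5 days these values were -0.07 and -0.49 to 0.35 (limma adjusted p = 0.84), and between the co-cultures 0.27 and -0.14 to 0.69 (limma adjusted p = 0.44). In order of their means, monoculture (7648 ± 260.0, SD, n = 3), 5 days (7357 ± 1213) and 3 days (6065 ± 858) followed each other, and no neighbours in that order differed by the test. Fn1 has 9 annotated protein-coding transcripts, and 3′ end counts do not separate its spliced forms, such as those with or without the extra domains found in wound and tumour fibronectin.

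Sparc encodes a collagen-binding protein that loosens cell attachment (chromosome 11, 55394500 to 55423183, minus strand). Its counts were 11559, 19791 and 15161 in the monocultures, 16033, 19100 and 21173 at 3 days, and 14035, 17574 and 12524 at 5 days. The 3 groups overlapped, and the widest spread was among the monocultures (coefficient of variation 26.6%). Its log2 fold changes of 0.30 at 3 days (95% interval -0.21 to 0.81, limma adjusted p = 0.41), -0.06 at 5 days (-0.56 to 0.45, limma adjusted p = 0.90) and -0.36 between the co-cultures (-0.86 to 0.15, limma adjusted p = 0.41) did not pass. The means ran from 18769 at 3 days through 15504 in monoculture to 14711 at 5 days, and no neighbours in that order differed by the test.

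Thrombospondins 1 and 2 are trimeric glycoproteins that restrain blood vessel growth, and thrombospondin 1 can also activate latent TGF-beta. Thbs1 (chromosome 2, 118111876 to 118127133, plus strand) had counts of 8833, 9965 and 10648 in the monocultures, 8589, 5687 and 6333 at 3 days, and 5662, 5491 and 5628 at 5 days. The 5-day values were the closest together of the 3 groups (coefficient of variation 1.62%) and lay below every other library, and at 3 days replicate 1 was nearest to the monocultures. Thbs1 fell at 5 days (log2 fold change -0.81 ± 0.20, SE, limma adjusted p = 0.0075). At 3 days its log2 fold change was -0.53 (95% interval -0.95 to -0.11), with a limma adjusted p of 0.071 that misses the threshold. Without co-culture replicate 1 at 3 days the value was -0.71 and passed (adjusted p = 0.018), and over the 22 alternatives the adjusted p ran from 0.0064 to 0.24. Between the co-cultures Thbs1 differed by -0.27 (-0.69 to 0.15, limma adjusted p = 0.45), although the groups did not overlap.

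Thbs2 (chromosome 17, 14665500 to 14694235, minus strand) had counts of 1734, 1952 and 1564 in the monocultures and 1612, 1898 and 1425 at 3 days, which overlapped, and 652.3, 737.7 and 772.8 at 5 days. All 5-day libraries held less than all others. Its fall at 5 days was 1.28 ± 0.17 on the log2 scale (a log2 fold change of -1.28, SE, limma adjusted p = 5.0e-05), and the difference of 5 from 3 days was -1.18 ± 0.17 (limma adjusted p = 0.00069). At 3 days the log2 fold change against monoculture was -0.09 (95% interval -0.46 to 0.27, limma adjusted p = 0.75). By size, Thbs2 stood at place 398 from the largest fall among the 10639 genes in the comparison of 5 with 3 days, and at place 654 at 5 days against monoculture.

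The 2 thrombospondin genes were also set against each other within each library, which asks whether they changed unequally. The ratio of Thbs1 to Thbs2, each with 1 added, was 5.09, 5.10 and 6.80 in the monocultures, 5.32, 3.00 and 4.44 at 3 days, and 8.67, 7.44 and 7.27 at 5 days. It reflects counts at the 3′ ends and not the molar ratio of the proteins. Every 5-day library lay above every library of the other groups. On the log2 scale the ratio was 0.91 higher at 5 than at 3 days (exact permutation p = 0.1, adjusted over 3 comparisons 0.15) and 0.47 higher than in monoculture (exact permutation p = 0.1, adjusted 0.15), and 0.1 is the smallest p, two-sided, that 3 against 3 libraries can give. At 3 days it was 0.44 lower than in monoculture (a difference of -0.44, exact permutation p = 0.3, adjusted 0.3), and those groups overlapped.

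**Figure D3:**
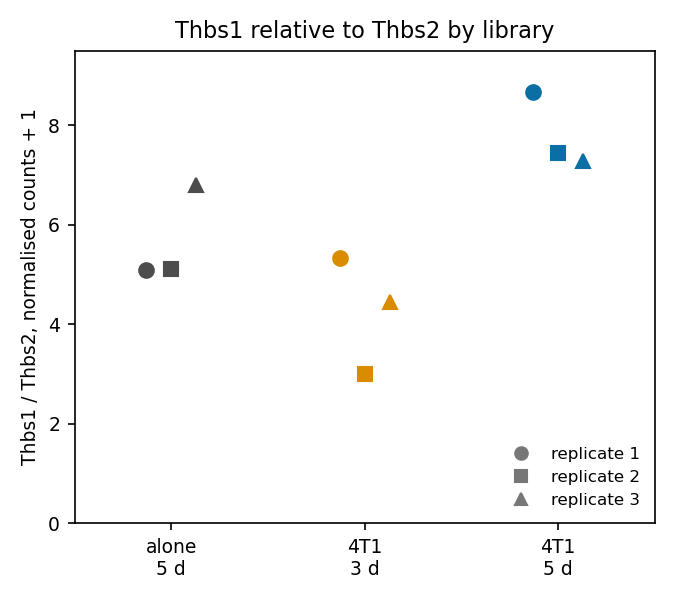
Ratio of the normalised count of Thbs1 to that of Thbs2, each with 1 added (vertical axis, from 0), in each library of the 3 culture groups (horizontal axis); marker shapes give the replicate. The 5-day co-cultures, between 7.27 and 8.67, lie above all other libraries, and the 3-day co-cultures reach down to 3.00.

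Tnc encodes tenascin C, a hexameric glycoprotein that weakens attachment to fibronectin and is re-expressed in wounds and tumour stroma (chromosome 4, 63959785 to 64047015, minus strand). Its counts were 1515, 1296 and 2124 in the monocultures, 4766, 3575 and 3350 at 3 days, and 4957, 3443 and 6752 at 5 days. Every co-culture library exceeded every monoculture, and the co-culture days overlapped. Tnc rose by 1.26 ± 0.25 on the log2 scale at 3 days (SE, limma adjusted p = 0.0020) and by 1.60 ± 0.25 at 5 days (limma adjusted p = 0.00021). These rises ranked 637th and 425th from the top among 10639 genes. The difference of 5 from 3 days was 0.34 (95% interval -0.19 to 0.87, limma adjusted p = 0.46). The rise of Tnc accompanied that of the epithelial and carcinoma markers in the same libraries, and their part in it was not tested. Tnc has 4 annotated coding transcripts, whose alternatively spliced repeats are not seen in 3′ end counts.

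Tnc and Thbs2 had the largest fold changes of the 7 genes, so the 250 bases before their starts are shown, from RefSeq on GRCm38.p6, which is the mm10 build. Sequences run 5′ to 3′ on the strand of the gene, and capitals mark matches on either strand to the Sp1 motif, spelled GGGCGG. The other motif in capitals, found once in each of these windows, is the TATA box, TATAAA, whose reverse complement is marked too. The Tnc window is chr4:64047016-64047265 and the Thbs2 window chr17:14694263-14694512, both on the minus strand.
Tnc: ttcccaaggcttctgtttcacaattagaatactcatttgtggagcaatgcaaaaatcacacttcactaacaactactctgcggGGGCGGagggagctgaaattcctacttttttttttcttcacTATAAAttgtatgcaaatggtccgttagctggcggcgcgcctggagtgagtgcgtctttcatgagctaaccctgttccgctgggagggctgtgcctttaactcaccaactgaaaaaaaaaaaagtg
Thbs2: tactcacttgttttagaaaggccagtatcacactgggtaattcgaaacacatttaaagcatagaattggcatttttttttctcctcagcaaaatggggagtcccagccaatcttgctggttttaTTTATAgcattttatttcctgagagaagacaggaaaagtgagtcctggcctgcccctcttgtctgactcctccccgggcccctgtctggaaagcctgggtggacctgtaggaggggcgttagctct
Promoter entries were matched by symbol for 5 of the 7 genes, with 8 windows in all; Fn1 and Thbs1 had none. The motifs searched on both strands were AP-1, TEAD (GGAATG), the SMAD element (CAGAC), Sp1, the TATA box, the interferon-stimulated response element and the CArG box; no motif was required to be free of overlap with another. TATAAA was in 5 of the 8 windows, beside 12.4% of 32851 windows of the same length, and in both windows printed here it lies at bases 125 to 130 of the 250. GGGCGG was in 2 of the 8, both of Tnc, beside 32.7%, and CAGAC in 6 of the 8, including both of its matches in the Thbs2 window, beside 42.2%. AP-1, TEAD and CArG letters were in none of the 8, beside 6.75%, 12.6% and 1.47% of all windows, and the interferon element was in 1, of Spp1, beside 2.98%. The 2 windows of Tnc overlap and hold the same TATAAA and the same GGGCGG, so each of these sites is counted in both. The windows of Postn and those of Spp1 do not overlap but each pair belongs to 1 gene. A match is a description of letters and not of a bound site.

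Postn encodes periostin, a collagen- and integrin-binding protein of fibrous tissue (chromosome 3, 54361109 to 54391037, plus strand). Its counts were 2570, 2717 and 1599 in the monocultures, 2307, 1897 and 3064 at 3 days, and 2326, 3740 and 2773 at 5 days. No group was apart from another. On the log2 scale Postn differed from monoculture by 0.09 after 3 days (95% interval -0.43 to 0.60, limma adjusted p = 0.84), by 0.37 after 5 days (-0.15 to 0.89, limma adjusted p = 0.30) and by 0.28 between the co-cultures (-0.23 to 0.80, limma adjusted p = 0.54). Its means increased in the order monoculture (2295 ± 607), 3 days (2422 ± 592) and 5 days (2946 ± 723), with steps smaller than the SD of any group.

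Spp1 encodes osteopontin, a secreted ligand of integrins and CD44 that is made by macrophages and carcinoma cells as well as fibroblasts (chromosome 5, 104435118 to 104441050, plus strand). Its counts were 3584, 5136 and 9933 in the monocultures, 4655, 4025 and 5110 at 3 days, and 6869, 7958 and 6635 at 5 days. Monoculture replicate 3 held the highest value of all 9 libraries, and the monocultures spanned both co-culture groups (coefficient of variation 53.2%, beside 11.9% at 3 days and 9.87% at 5 days). Every 5-day library exceeded every 3-day library, but the log2 difference of 0.64 (95% interval 0.04 to 1.24) had a limma adjusted p of 0.19. Relative to the monocultures, Spp1 differed by -0.31 after 3 days (-0.91 to 0.29, limma adjusted p = 0.48) and by 0.33 after 5 days (-0.27 to 0.93, limma adjusted p = 0.44). Without monoculture replicate 3 the value at 3 days turned to 0.093 (limma adjusted p = 0.84), and that at 5 days became 0.73 and passed (limma adjusted p = 0.034). Listed macrophage markers, 10 of 14 in the table, summed to between 85.9 and 382.9 in a library, with Adgre1, Ptprc and Itgam not among the genes of the table. By group that sum was 100.8 to 300.1 in the monocultures, 131.2 to 382.9 at 3 days and 85.9 to 165.9 at 5 days. Lyz2 had the highest means among them (91.3, 147.8 and 59.1). Of 7 tested, only Csf1r (17.1, 19.1 and 6.4) was called. It was lower at 5 days than in monoculture and than at 3 days, beside 24.0% and 6.91% of all genes tested. Both calls were lost with thinned reads (limma adjusted p = 0.22 and 0.16), and the second also without several libraries. The part of macrophages and of carcinoma cells in the Spp1 values was not tested.

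Separation of groups was counted apart from the test. At 3 days 3 of the 7 genes did not overlap with monoculture (Fn1 and Thbs1 lower, Tnc higher), beside 37.4% of all genes tested (19.2% higher, 18.1% lower). At 5 days it was 3 of 7 (Thbs1 and Thbs2 lower, Tnc higher), beside 40.9% (20.8% higher, 20.1% lower). Between the co-cultures it was 3 of 7 as well (Thbs1 and Thbs2 lower, Spp1 higher at 5 days), beside 24.6% (11.7% higher, 12.9% lower).

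Among 4846 tested genes with a mean of at least 50, those that followed each of the 7 most closely were found. Pearson's r of the log2 values over the 9 libraries was used, as a description of libraries that share 3 groups. How high the best r of so many genes would run by chance was not tested. Tnc was followed by Shc4, Pdgfa and Msn (r between 0.980 and 0.981). Pdgfa, which encodes a platelet-derived growth factor chain, averaged 142.2 in the monocultures, then 384.6 after 3 days and 556.7 after 5 days. Shc4 overlaps Eid1 on the opposite strand, and its reads are uncertain because the strand setting is not given. Thbs1 was followed by Csnk1d, Arhgdib and Fgfrl1 (0.963 to 0.976), and Thbs2 by Diablo, Tmbim6 and Dpep1 (0.967 to 0.970). Tmbim6 had means of 1323, 1347 and 768.9. Fn1 was closest to Pdcd6ip, Acta2 and Rcn2 (0.888 to 0.939), of which Acta2 encodes smooth muscle actin. For Sparc these were Cnih1, Jagn1 and Laptm4a (0.932 to 0.955), for Spp1 Pak1, Cse1l and Cited2 (0.885 to 0.954), and for Postn Tmeff1, Saraf and Mmp13 (0.847 to 0.856).

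Relatives of the 7 genes within the matricellular families changed in both directions. Of 27 listed, 20 were in the table and 15 were tested. At 3 days 2 rose and 4 fell, at 5 days 4 rose and 7 fell, and between the co-cultures 1 fell. Of all genes tested, 20.0%, 24.0% and 6.91% were called in these comparisons. Smoc1, Smoc2 and Tnxb passed the filter through the monocultures, and without them 2 rose and 2 fell at 3 days and 4 rose and 4 fell at 5 days. The median log2 fold change of the other 12 was -0.33 at 3 days and -0.41 at 5 days. Thbs3, a pentameric thrombospondin, fell from 137.5 in monoculture to 34.4 at 3 days and 32.9 at 5 days (log2 fold changes of -1.95 and -2.03, limma adjusted p = 3.7e-05 and 1.5e-05). Of the 3 tested thrombospondin genes, Thbs3 passed the test at both times and Thbs1 and Thbs2 at 5 days. Thbs3 overlaps Mtx1 on the opposite strand, which leaves its count uncertain. Tnxb, the tenascin of loose connective tissue, fell from 50.8 to 4.07 at 3 days and 3.8 at 5 days, opposite to Tnc. The SPARC relative Smoc2 fell from 115.2 to 4.4 and 1.2 (log2 fold changes of -4.86 and -5.85), and the 3-day value was -5.51 without co-culture replicate 1 at 3 days and -3.90 without replicate 3. The CCN family went both ways: Ctgf rose from 1288 to 6002 at 3 days (log2 fold change 2.20) and 4607 at 5 days, and Nov fell from 1117 to 31.1 and 14.6. The log2 fold changes of Nov were -5.32 and -6.47, or -5.91 without co-culture replicate 1 at 3 days and -7.15 without replicate 3 at 5 days. Igfbp7, an insulin-like growth factor binding protein gene that overlaps Polr2b, rose from 7590 to 18411 and 13969, and its 5-day call was lost under quantile normalization (adjusted p = 0.065). Ecm1 (367.3 to 694.8) and the SPARC relative Sparcl1 (16.2 to 47.5) rose at 5 days, the latter not without monoculture replicate 2 (0.052) or co-culture replicate 2 at 5 days (0.058). Wisp2, another CCN gene, had 265.5 at 3 days and 77.2 at 5 days, and this was the 1 call between the co-cultures.

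Cell surface receptors of these proteins were called in both directions. Of 23 listed, 20 were in the table and 18 were tested. At 3 days 8 rose and 4 fell, and at 5 days 10 rose and 4 fell, beside 20.0% and 24.0% of all genes tested. Among the risers at both times Stab1, Itga4 and Itga6 reached the filter value of 5 in fewer than 3 monocultures and passed through the co-cultures. Without these 3 genes 5 rose and 4 fell at 3 days (median log2 fold change 0.31 over 15 genes), and 7 rose and 4 fell at 5 days (median 0.32). Itgb1, the integrin beta chain shared by the fibronectin and tenascin receptors, rose from 1470 to 3340 at 3 days and 3378 at 5 days (limma adjusted p = 0.00010 and 6.1e-05). Itga3, a laminin and thrombospondin receptor chain, rose from 14.9 to 66.0 and 84.9. Stab1, a scavenger receptor for SPARC, went from 1.63 to 15.4 and 16.4, and it overlaps Nt5dc2 on the opposite strand. The genes that fell were Sdc4, a syndecan that takes part in fibronectin adhesion (88.4 to 26.9 and 12.9), Itga8, an integrin chain for fibronectin, tenascin C and osteopontin (65.5 to 21.3 and 4.6), Itgb5 (1079 to 533.8 and 436.6) and Lrp1, an endocytic receptor of thrombospondins (4010 to 2411 and 2441). The Itgb5 call at 3 days was lost without co-culture replicate 2 or 3 at 3 days (adjusted p = 0.082 and 0.080). The Lrp1 calls were lost without monoculture replicate 1 (0.13 at 3 days and 0.14 at 5 days) or replicate 3 (0.054 and 0.053), without co-culture replicate 2 or 3 at 3 days (0.10 and 0.12), and without replicate 1 or 2 at 5 days (0.12 and 0.098).

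Receptors of osteopontin and fibronectin among the risers were singled out after their values were seen. Cd44 had 177.4 in monoculture, 330.7 at 3 days and 484.6 at 5 days, and Itgb3 60.2, 183.9 and 312.2, and both rose at both times. The log2 fold change of Itgb3 was 1.92 and 2.69, or 2.58 and 3.35 without monoculture replicate 3. Between the co-cultures 3 receptors were called, beside 6.91% of all genes tested. Itga8 and the thrombospondin receptor Cd47 were lower at 5 days (Cd47 342.8 to 208.5) and Sdc1 was higher (549.6 to 886.5). The Cd47 call, at adjusted p = 0.043, was lost without any of the co-culture libraries in turn and without monoculture replicate 3 (0.057 to 0.16). The Sdc1 call, at 0.024, was lost under quantile normalization (0.062) and without replicate 1 or 2 of either co-culture (0.051 to 0.097). Cd36 was not among the genes of the table. Integrin chains such as Itga3 and Itga6 are also made by epithelial cells, whose markers were higher in the same libraries as given above, and their part was not tested.

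**Figure D4:**
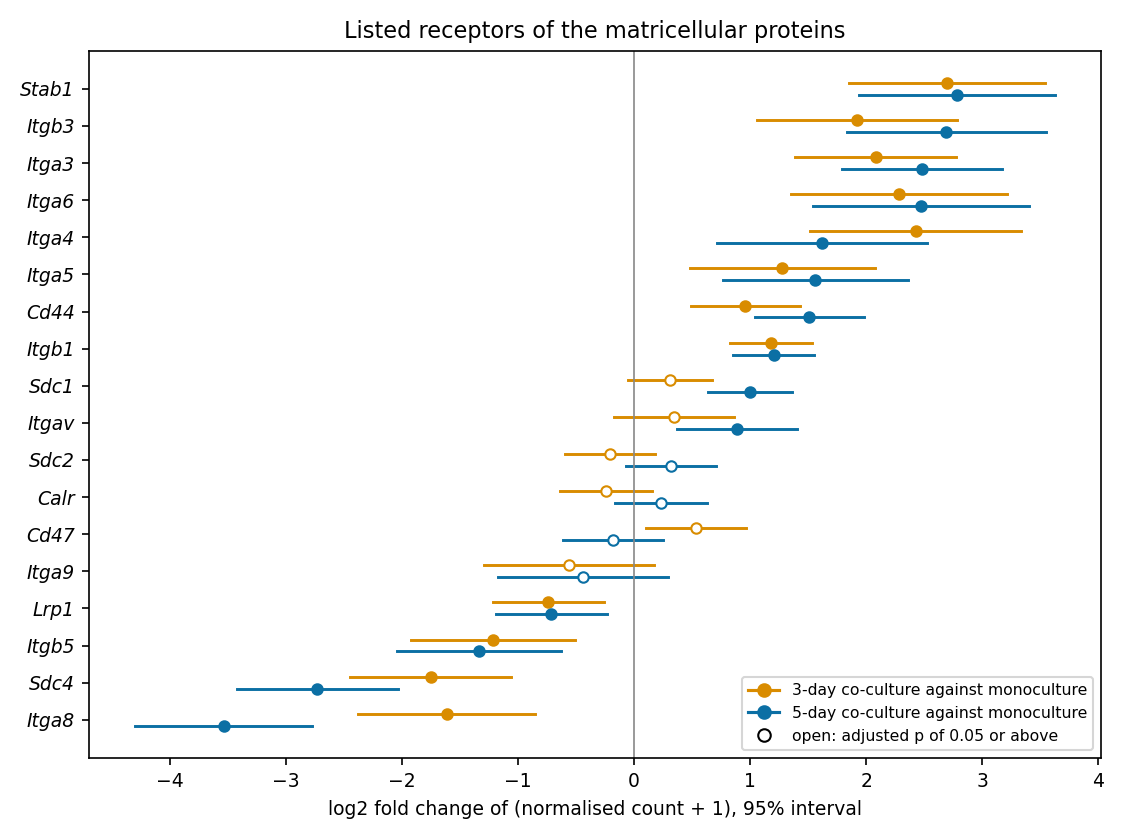
Log2 fold changes of (normalised count + 1) on the horizontal axis with 95% intervals for the 18 tested receptor genes, at 3 days and 5 days of co-culture against monoculture (colours), ordered by the 5-day value; filled points have a limma adjusted p under 0.05. Itgb3, Cd44 and Itgb1 lie to the right at both times, and Sdc4 and Itga8 lie farthest to the left at 5 days.

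The adhesion complex links integrins to the actin skeleton. Of 20 tested genes 3 were called at 3 days, beside 20.0% of all genes tested. They fell, namely Tns2 (413.3 to 137.7), Parva (511.1 to 247.7) and Tns1 (246.3 to 172.7). The Tns1 call, at adjusted p = 0.042, was lost without any library in turn except co-culture replicate 3 at 5 days (0.0503 to 0.14). At 5 days 6 rose and 2 fell, beside 24.0% of all genes tested. Tns2 stood at 129.3 and Parva at 255.6, and Actn1, which encodes an actin crosslinker, rose from 1377 to 2626. Tns3, a tensin, rose from 225.8 to 391.4, a call that did not hold without monoculture replicate 2 (adjusted p = 0.051), and Fermt1, a kindlin of epithelial cells, from 0.4 to 6.3, having passed the filter through the co-cultures. Between the co-cultures limma called 0 of 20, beside 6.91% of all genes tested. It had 4 at an unadjusted p under 0.05, and edgeR and DESeq2 each called 0. Among 14 tested TGF-beta target genes 4 rose and 3 fell at 3 days, and 5 rose and 4 fell at 5 days. The shares of all genes tested were again 20.0% and 24.0%. Id1, which encodes an inhibitor of differentiation, fell from 1536 to 172.2 and 166.7 and the integrin gene Itga11 from 1227 to 292.8 and 174.9. Cnn1 (323.9 to 761.9 and 596.4), Ltbp2 (465.6 to 755.2 and 765.4) and Skil (20.3 to 36.8 and 39.7) rose at both times, and Id3 (4206 to 1703 and 2274) fell at both. The Ltbp2 and Skil calls were lost without monoculture replicate 2 (adjusted p = 0.10 and 0.20 at 3 days, 0.078 and 0.11 at 5 days) and without several other libraries. The Skil call at 3 days was also lost with the replicate block (0.051), with only the compared groups (0.065), with DESeq2 (0.060) and with thinned reads (0.24), and that at 5 days with thinned reads (0.070). Tagln, which overlaps Pcsk7 on the opposite strand and is uncertain for that reason, fell at 5 days (3268 to 1723), which was lost without monoculture replicate 1 or 3 or co-culture replicate 1 or 2 at 5 days (0.067 to 0.095). Between the co-cultures Pmepa1 rose (280.2 to 480.4) and Tagln (4952 to 1723) and Itga11 fell. The Itga11 call between the co-cultures (adjusted p = 0.033) was lost without any co-culture library in turn (0.059 to 0.095) and with array weights (0.056).

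Of 15 tested proteases that cut matrix glycoproteins, 3 rose and 2 fell at 3 days, and 5 rose and 5 fell at 5 days. Of all genes tested, 20.0% were called at 3 days, 24.0% at 5 days and 6.91% between the co-cultures. Adamts1, which encodes a protease with thrombospondin-type repeats, fell from 227.9 to 110.8 and 80.2. Mmp2, which encodes gelatinase A, fell from 1758 to 937.5 and 722.4. Mmp9, which encodes gelatinase B, had means of 49.0, 3799 and 1398. It had a log2 fold change of 6.25 at 3 days and 4.81 at 5 days, and was lower at 5 than at 3 days (-1.44, limma adjusted p = 0.00015). Plat and Mmp10 were higher at 5 than at 3 days (log2 differences of 1.02 and 1.68), and Mmp11, which overlaps Chchd10 on the opposite strand, was lower (143.9 to 47.6). Also called at 5 days were Mmp13, which rose from 24.9 to 81.3, and Plau (19.7 to 7.6) and Ctsk (547.5 to 335.8), which fell. The Plau call was lost without monoculture replicate 1 or 3 or co-culture replicate 1 at 5 days (adjusted p = 0.071 to 0.12), and the Ctsk call without 6 of the 9 libraries in turn (0.056 to 0.17). The Mmp10 call between the co-cultures was lost without co-culture replicate 2 at 3 days (adjusted p = 0.065), and that of Mmp11 without the same library (0.073) or replicate 2 at 5 days (0.063).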

How the data were processed

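The authors deposited 1 table of normalised gene counts, a signal whose scale differs between libraries by 1 factor each. Per the submitters' processing notes, bcl2fastq, STAR 2.4.2a, HTSeq and mm10 were used; the annotation, strand setting, gene filter and way of setting factors are not given in the sources used here. Column names were matched to the labels. For the 5-day co-culture, the column used for replicate 2 lacks the mark of 4T1 cells in its name and was placed by elimination, with all 8 others matched. Whole reads were recovered by dividing each value by what 1 read is worth in its library; 99.98% to 100.0% of values came out whole within 0.051.

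Tests covered genes reaching a value of 5 in 3 or more libraries and used limma 3.58.1 in R 4.3.3 (lmFit, eBayes with trend, two-sided, all 9 libraries, 1 mean per group) on log2(value + 1), a scale that understates changes of low genes, with Benjamini-Hochberg adjustment. Named beside the 7 genes are up to 3 called genes per list and comparison by adjusted p, those that account for counts of 5 or fewer, and others said to be singled out later; some listed genes that this rule names are not reported here. Genes, lists and tests were chosen with earlier results of these data known. As alternatives, the pseudocount was 0.5 or 5, the filter was dropped or set to a mean of 20, and scaling was by median-of-ratios, TMM or quantiles. Others were a replicate block, only the compared groups, array weights, edgeR 4.0.16 and DESeq2 1.42.0 on recovered reads, thinned reads, and each library left out. Counting lists without genes that passed the filter through one side only was chosen after seeing the data. Positions are from GENCODE on mm10. The fit was tested on simulated data.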

Additional observations from a re-analysis of the deposited data

Results flagged for a closer look

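Thbs2 differed between the 2 times of co-culture: the fit's own term for 5 against 3 days gave a log2 fold change of -1.18 (limma adjusted p = 0.00069), with every 5-day library lower than every 3-day library. Its values against the shared monocultures were -0.09 at 3 days and -1.28 at 5 days.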

How the results depend on the processing

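Of 462 recomputed fold changes of the 7 genes over the 3 comparisons, 447 kept their direction and side of the threshold, and no call of Tnc, Thbs1 or Thbs2 was lost under the alternatives run. At 3 days 2 of the 7 genes were called, not 1, under quantile normalization, array weights and DESeq2, where Thbs1 passed at -0.76, -0.69 and -0.53; its range without 1 library was -0.71 to -0.41, with 1 to 2 genes called. Signs turned for values that had not been called: Postn at 3 days under quantile normalization (-0.038), Thbs2 at 3 days with array weights (0.053), and, over the libraries left out in turn, Thbs2 (-0.20 to 0.0052), Postn (-0.15 to 0.25) and Spp1 (-0.64 to 0.093) at 3 days and Fn1 (-0.16 to 0.073), Sparc (-0.25 to 0.14) and Spp1 (-0.0022 to 0.73, with 3 to 4 genes called) at 5 days. The cause was not tested. Genes called between the co-cultures numbered 735, 1124 with array weights and 311 to 749 without 1 library. The adhesion list had 3 calls at 3 days, 5 with edgeR, 6 with array weights and 5 with the replicate block; the 5-day count of 8 was 5 without monoculture replicate 2, and array weights gave 1 call between the co-cultures. TGF-beta targets had 11 calls at 3 days with array weights, against 7. Between the co-cultures receptors had 5 calls with array weights and 1 without 3-day replicate 2 or 5-day replicate 1 or 2, against 3, proteases 2 without 3-day replicate 2, against 4, and relatives 2 without 3-day replicate 3, against 1. Correlations of deviations ran from -0.11 to 0.23 for same-numbered libraries of different groups and from -0.30 to 0.32 for different-numbered ones. Each monoculture correlated best with the 5-day library of its own number (0.14, 0.23 and 0.04), but this did not hold throughout for the other pairs of groups. Whether replicate numbers pair the libraries was not settled by these values. The replicate block left the calls of the 7 genes as they were, with 2219, 2663 and 827 genes called in the 3 comparisons, against 2129, 2552 and 735 without it. Over all genes, no scaling moved the median fold change by more than 0.1. With 3 libraries a group, the 95% intervals of the 4 genes without a call still reach log2 changes of up to 1.24.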
